A study of Mus musculus with 8 samples.

Results

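The 8 genes described here, of 29234 in the table, encode core parts of the basement membrane, the sheet of matrix under every epithelium. They were picked by symbol: the collagen IV chains *Col4a1* and *Col4a2*, the laminin chains *Lama3*, *Lamb3*, *Lama5*, *Lamb1* and *Lamc1*, and *Hspg2*, the gene for perlecan. The choice was made with the difference between the 2 conditions already known, so the values of these 8 genes in that contrast are given as a description, with no test. Perlecan is a heparan sulfate proteoglycan and neither a collagen nor a laminin, and all 8 genes passed the filter on low counts.

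Laminins are trimers of an α, a β and a γ chain that assemble on the cell surface, where integrins and dystroglycan bind them. Collagen IV trimers, in most tissues of 2 α1 chains and 1 α2 chain, form a second network that is crosslinked to itself and gives the sheet its strength, and nidogen, perlecan and agrin hold the networks together. Under the gut epithelium laminin-332 (which holds the products of *Lama3* and *Lamb3*) and laminin-511 (*Lama5*, *Lamb1* and *Lamc1*) are the main laminins, and mesenchymal cells beneath the epithelium are known as a large source of collagen IV.

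The cells were wild-type murine colon organoids, epithelial structures grown from crypts in Matrigel, a gel that is itself a basement membrane extract and from which the organoids were freed before RNA extraction. All of them received microbe-free fecal supernatant at 4 mg/mL, and the labels give a time of 5 days. In 4 samples (FS_CTR) it came from healthy mice, and in 4 samples (FS_DSS) from mice with colitis and dysbiosis induced by dextran sulfate sodium (DSS), a chemical that injures the colon epithelium. Pellets of several mice were pooled for the supernatants, and nothing in the sources used here says that the 4 samples of a group came from separate cultures or animals, so the *p*-values measure only the spread between these samples.

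The libraries held 18968416 to 27035243 estimated counts. In FS_CTR replicates 3 and 4 the mitochondrially encoded genes took 38.7% and 33.3% of the counts, against 2.83% to 6.99% in the other 6 libraries, and on the log2 scale Pearson's r of these 2 libraries with the other 6 was 0.929 to 0.956, against 0.953 to 0.985 among those 6. Values without these 2 libraries are therefore given beside the results. The 12 epithelial markers summed to 15570 to 19150 counts per 1000000 counts (CPM) in FS_CTR and to 17090 to 19340 CPM in FS_DSS, led by the keratin gene *Krt8*. Of these markers, 3 had an unadjusted *p* under 0.05 (edgeR): the cadherin gene *Cdh1*, at 1162 to 1814 CPM in FS_CTR and 1874 to 2185 CPM in FS_DSS (Log2(FC) 0.51, adjusted *p* = 0.123), the stem cell gene *Lgr5*, at 13.5 to 40.2 CPM and 2.13 to 16.2 CPM (-1.37, adjusted *p* = 0.179), and the intestinal factor gene *Cdx2*, at 263.8 to 347.9 CPM and 216.6 to 264.1 CPM (-0.28, adjusted *p* = 0.169). Without FS_CTR replicates 3 and 4 these were 0.29, -1.80 and -0.19, and the part of the makeup of the epithelium in the results below was not tested. The 8 fibroblast markers summed to 4.28 to 5.09 CPM in FS_CTR and to 5.00 to 8.69 CPM in FS_DSS, and 7 of the 8 had a mean under 1 CPM. The other was *Vim*, at 2.67 to 4.01 CPM in FS_CTR and 3.42 to 7.20 CPM in FS_DSS (Log2(FC) 0.83, unadjusted *p* = 0.0109, adjusted *p* = 0.115 from edgeR, and 0.65 without FS_CTR replicates 3 and 4). The 8 smooth muscle and pericyte markers reached at most 5.76 CPM, the 8 endothelial markers at most 4.31 CPM, the 8 immune markers at most 17.7 CPM and the 6 glial and neuronal markers at most 3.05 CPM in any library. Among markers that passed the filter, 1 fibroblast Log2(FC) was positive and 1 negative. The counts were 1 and 2 for smooth muscle and pericytes, 0 and 3 for endothelium, 2 and 1 for immune cells and 0 and 1 for glia and neurons. At an unadjusted *p* under 0.05 (edgeR), 1 endothelial and 1 immune marker were lower, as were 13.4% of all genes tested, and of these non-epithelial markers *Vim* alone was higher. In such bulk RNA, fewer cells of a type and less RNA per cell cannot be told apart.

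*Col4a1* and *Col4a2* lie head to head on chromosome 8 and are read from opposite strands. In GENCODE M39 on GRCm39, *Col4a1* spans positions 11248423 to 11362826 on the minus strand with 52 exons in its canonical transcript, and *Col4a2* spans positions 11362471 to 11499287 on the plus strand with 48 exons, so the annotated 5′ ends overlap. The RefSeq promoter windows of both genes, 300 bases each on GRCm38.p6, are printed because both collagen genes were higher in every FS_DSS library than in any FS_CTR library and share this stretch of DNA. The windows cover chr8:11312777-11313076 (minus strand) and chr8:11312555-11312854 (plus strand), 5′ to 3′ in the direction of each gene, and the capitals mark the 78 bases that both windows hold.
Col4a1: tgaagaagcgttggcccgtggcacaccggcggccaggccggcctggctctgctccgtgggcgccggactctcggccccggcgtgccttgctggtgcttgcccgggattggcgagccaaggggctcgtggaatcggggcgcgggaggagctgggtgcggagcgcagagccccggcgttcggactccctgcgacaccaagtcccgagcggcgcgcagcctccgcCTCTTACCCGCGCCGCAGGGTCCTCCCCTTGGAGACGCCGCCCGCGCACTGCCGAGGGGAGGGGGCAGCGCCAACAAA
Col4a2: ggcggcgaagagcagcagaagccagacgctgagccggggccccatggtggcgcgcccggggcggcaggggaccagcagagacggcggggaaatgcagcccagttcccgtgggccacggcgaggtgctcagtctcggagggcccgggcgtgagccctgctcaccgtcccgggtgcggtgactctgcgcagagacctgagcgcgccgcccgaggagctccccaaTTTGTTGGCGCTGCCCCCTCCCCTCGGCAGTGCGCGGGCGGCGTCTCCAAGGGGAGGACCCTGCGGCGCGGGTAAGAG
The RefSeq starts of the 2 genes are 21 bases apart. G and C made up 74.0% of the *Col4a1* window and 73.7% of the *Col4a2* window, against a median of 52.7% over the 32851 windows of the table. The GC box GGGCGG, searched on both strands, occurred 1 time in the *Col4a1* window and 3 times in the *Col4a2* window, and 1 of these matches lies in the shared bases and counts for both genes. The CCAAT box CCAAT occurred 1 time in each window, and the TATA box TATAAA in neither. Of all windows 35.7% held GGGCGG, 37.4% held CCAAT and 13.6% held TATAAA. Of the 6 members with a window (*Lama3* and *Lamc1* had none), 5 held GGGCGG, 3 held CCAAT, 1 (*Lamb3*) held GGAATG, the TEAD site, present in 14.7% of all windows, and none held TATAAA, the AP-1 site TGANTCA (7.80% of all windows) or GTCTAGAC (0.200%). *Lamb3* had 2 windows, which were searched together, whereas the shares of all windows are per single window.

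Collagen IV showed the clearest separation of the 2 groups. *Col4a1* was at 224, 196.9, 140 and 130.1 CPM in FS_CTR replicates 1 to 4 and at 349.3, 306.8, 303.1 and 339.6 CPM in FS_DSS replicates 1 to 4. Every FS_DSS library lay above every FS_CTR library, and the 2 lowest values were those of FS_CTR replicates 3 and 4. The means were 172.7 ± 45.1 CPM and 324.7 ± 23.2 CPM (SD, n = 4), a Log2(FC) of 0.91 (standard error 0.176), which is 1.88-fold. Each library left out in turn gave a Log2(FC) between 0.80 and 1.06, and leaving out FS_CTR replicates 3 and 4 gave 0.63.

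*Col4a2*, for the chain that joins 2 α1 chains in the trimer, was at 186.6, 163.5, 131.4 and 142.1 CPM in FS_CTR and at 302.9, 269, 262.8 and 307.1 CPM in FS_DSS. Its groups did not overlap either, with means of 155.9 ± 24.4 CPM and 285.5 ± 22.8 CPM (SD, n = 4). Its Log2(FC) was 0.87 (standard error 0.125), between 0.80 and 0.97 with each library left out in turn and 0.71 without FS_CTR replicates 3 and 4. Of the 8 genes these 2 had every FS_DSS library above every FS_CTR library, as did 943 of 12729 genes tested (7.41%), and 0 of the 8 had every FS_DSS library below, as did 7.58% of all genes. Among the 1219 genes with a transcript of 6 to 8 kb, the length class of both collagen genes, 12.5% had every FS_DSS library above. Per kilobase of transcript, *Col4a1* and *Col4a2* stood at a ratio of 0.934 to 1.23 in all 8 libraries, with a mean of 1.12 ± 0.139 in FS_CTR and 1.16 ± 0.0230 in FS_DSS (SD, n = 4). The levels of the 2 chains per length were thus close to equal in each library, and the lowest ratio was that of FS_CTR replicate 4.

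**Figure D1:**
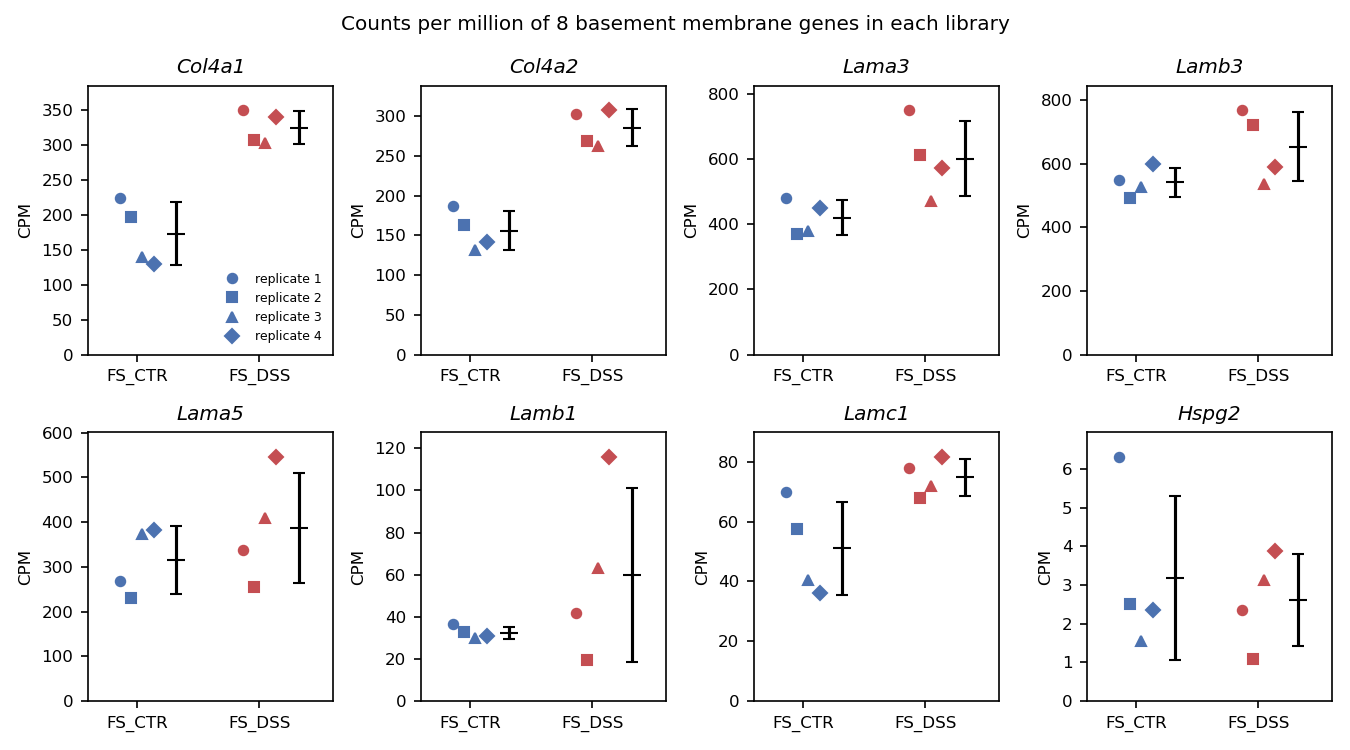
CPM (y axis, from 0) of the 8 genes in each library, FS_CTR in blue and FS_DSS in red, with 1 marker shape per replicate number and the black mark showing the mean ± SD of the 4 libraries. The groups are apart for *Col4a1* and *Col4a2* and overlap for the other 6 genes.

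The other collagen IV chains were scarce. *Col4a5*, which makes up other collagen IV trimers, was at 1.73 to 2.57 CPM in FS_CTR and at 1.58 to 4.19 CPM in FS_DSS, with a Log2(FC) of 0.62 (standard error 0.318, unadjusted *p* = 0.0821 and adjusted *p* = 0.263, edgeR) and of 0.52 without FS_CTR replicates 3 and 4. *Col4a3* reached 0.381 CPM in FS_CTR and 1.29 CPM in FS_DSS, and *Col4a4* reached 0.412 CPM and 1.27 CPM. Both had their 2 highest values in FS_DSS replicates 3 and 4 and did not pass the filter on low counts. *Col4a6* averaged 0.0285 CPM and 0.0329 CPM. Per kilobase, *Col4a5* averaged 0.317 in FS_CTR and 0.491 in FS_DSS, against 26.1 and 49.1 for *Col4a1*.

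*Lama3* and *Lamb3*, for chains of laminin-332, the laminin that anchors epithelial cells through integrin α6β4, had higher means than the chains of laminin-511. *Lama3* (chromosome 18, positions 12466876 to 12717747, plus strand), for the α3 chain, was at 479.2, 369.1, 379.5 and 450.5 CPM in FS_CTR and at 748.6, 611, 470.7 and 572.7 CPM in FS_DSS. In 3 of 4 FS_DSS libraries it was above all FS_CTR libraries, and FS_DSS replicate 3 lay below FS_CTR replicate 1. Its Log2(FC) was 0.52 (standard error 0.157), between 0.40 and 0.62 with each library left out in turn and 0.50 without FS_CTR replicates 3 and 4.

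*Lamb3* (chromosome 1, positions 192890007 to 193027705, plus strand), for the β3 chain, was at 548.2, 490.2, 527.8 and 597.7 CPM in FS_CTR and at 766.8, 720.8, 536 and 587.9 CPM in FS_DSS. The values of FS_DSS replicates 1 and 2 were the highest, whereas those of FS_DSS replicates 3 and 4 lay within the range of FS_CTR. The Log2(FC) was 0.27 (standard error 0.137), with 0.19 to 0.36 for each library left out in turn and 0.33 without FS_CTR replicates 3 and 4. Between replicates 1 and 2 of both groups alone it was 0.52, and between replicates 3 and 4 alone it was 0.02.

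Per kilobase of transcript *Lamb3* averaged 97.0 CPM in FS_CTR and 117.1 CPM in FS_DSS, and *Lama3* averaged 34.3 CPM and 49.1 CPM. The ratio of *Lama3* to *Lamb3* was 0.328 to 0.399 in FS_CTR and 0.387 to 0.445 in FS_DSS. It depends on which *Lama3* transcript is counted: with the length of the shorter coding transcript (7228 bases) in place of the longest (12225 bases) it was 0.555 to 0.674 in FS_CTR and 0.654 to 0.753 in FS_DSS.

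The chains of laminin-511 differed from *Lama3* and *Lamb3* in their pattern over the libraries. *Lama5* (chromosome 2, positions 179818166 to 179867712, minus strand), for the α5 chain, was at 269.3, 230.7, 374.6 and 383.1 CPM in FS_CTR and at 338.1, 254.6, 409.1 and 545.9 CPM in FS_DSS. In both groups replicates 3 and 4 were above replicates 1 and 2, and the groups overlapped over most of their range. The Log2(FC) was 0.30 (standard error 0.250), between 0.09 and 0.46 with each library left out in turn and 0.63 without FS_CTR replicates 3 and 4.

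*Lamb1* (chromosome 12, positions 31315030 to 31379658, plus strand), for the β1 chain, was at 36.4, 32.7, 29.7 and 30.9 CPM in FS_CTR and at 41.6, 19.5, 63 and 115.9 CPM in FS_DSS. The 4 FS_CTR values were close together, with a coefficient of variation of 8.96%, whereas that of FS_DSS was 68.8% and its replicate 2 was the lowest of all 8 libraries. The Log2(FC) of 0.89 (standard error 0.439) was 1.58 between replicates 3 and 4 and -0.18 between replicates 1 and 2. Without FS_DSS replicate 4, the highest library, it dropped to 0.35, the lowest value with 1 library left out, and without FS_CTR replicates 3 and 4 it was 0.80.

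*Lamc1* (chromosome 1, positions 153094597 to 153208774, minus strand), for the γ1 chain that most laminins share, was at 69.9, 57.6, 40.5 and 36.2 CPM in FS_CTR and at 78, 67.7, 71.9 and 81.6 CPM in FS_DSS. The spread lay mostly in FS_CTR, where replicates 3 and 4 were the lowest of all 8 libraries, while the 4 FS_DSS libraries had a coefficient of variation of 8.26%. The Log2(FC) was 0.55 (standard error 0.196), between 0.41 and 0.74 with each library left out in turn, but 0.23 without FS_CTR replicates 3 and 4.

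Per kilobase, *Lama5* averaged 27.5 CPM in FS_CTR and 33.8 CPM in FS_DSS, *Lamc1* averaged 6.43 CPM and 9.43 CPM, and *Lamb1* averaged 5.59 CPM and 10.3 CPM. The β1 and γ1 chains were thus the scarcer ones: *Lamb1* stood at 0.151 to 0.419 and *Lamc1* at 0.137 to 0.384 of *Lama5* over the 8 libraries. *Lamb2*, for the β2 chain that can take the place of β1, was at 28.8 to 34.2 CPM in FS_CTR and at 27.6 to 45.6 CPM in FS_DSS, with a Log2(FC) of 0.21 (standard error 0.149, unadjusted *p* = 0.192 and adjusted *p* = 0.403, edgeR) and of 0.27 without FS_CTR replicates 3 and 4. In FS_CTR the ratio of *Lamb2* to *Lamb1* per kilobase was 0.868 to 1.18, and in FS_DSS it ran from 0.405 to 1.46. The chains *Lama1*, *Lama2*, *Lama4* and *Lamc3*, found in other laminins, averaged at most 0.0328 CPM in either group.

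*Hspg2* (chromosome 4, positions 137196079 to 137298231, plus strand), for perlecan, had few counts, 19 to 199 a library. It was at 6.31, 2.497, 1.56 and 2.34 CPM in FS_CTR and at 2.35, 1.08, 3.12 and 3.88 CPM in FS_DSS, and the groups overlapped. It was the 1 gene of the 8 with a negative Log2(FC), -0.31 (standard error 0.495), and this sign came from FS_CTR replicate 1: without that library the value was 0.27. It was -1.36 between replicates 1 and 2, 0.85 between replicates 3 and 4, and -0.76 without FS_CTR replicates 3 and 4. At 0.219 CPM per kilobase in FS_CTR and 0.180 in FS_DSS it was the scarcest of the 8 genes, while *Agrn*, the gene for the other large basement membrane proteoglycan agrin, averaged 93.4 and 122.8 CPM per kilobase.

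**Figure D2:**
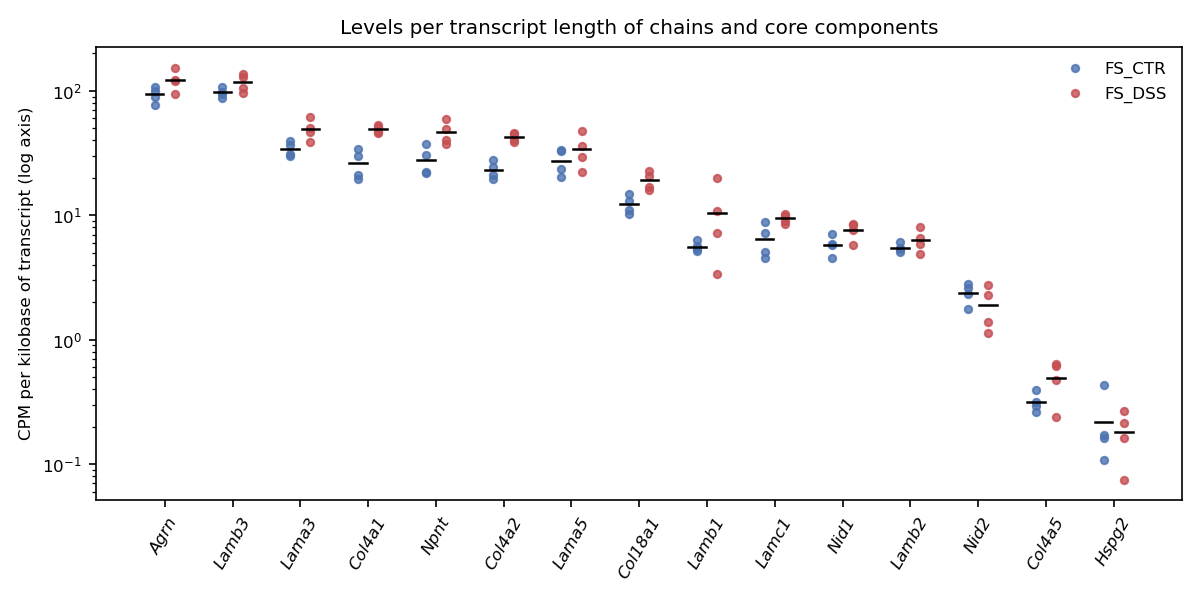
CPM per kilobase of the canonical transcript (log axis) for the chains and core components above 0.05 in every library, FS_CTR in blue and FS_DSS in red, each point 1 library and each black line the mean of 4. *Lamb3* and *Agrn* are the highest and *Hspg2* the lowest, more than 2 powers of 10 below them.

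In order of the mean level per kilobase in FS_CTR, the 8 genes were *Lamb3* (97.0 ± 8.04), *Lama3* (34.3 ± 4.40), *Lama5* (27.5 ± 6.65), *Col4a1* (26.1 ± 6.82), *Col4a2* (23.1 ± 3.62), *Lamc1* (6.43 ± 1.96), *Lamb1* (5.59 ± 0.501) and *Hspg2* (0.219 ± 0.147; CPM per kilobase, SD, n = 4). The neighbours from *Lama3* to *Col4a2*, and *Lamc1* and *Lamb1*, overlapped in their range over the FS_CTR libraries. In FS_DSS *Col4a1* (49.1 ± 3.503) stood level with *Lama3* (49.1 ± 9.40), followed by *Col4a2* (42.3 ± 3.38) and *Lama5* (33.8 ± 10.8). The values of *Lama3* use its transcript of 12225 bases and would be higher with the shorter one of 7228 bases. Its tie with *Col4a1* and its overlap with its neighbours in FS_CTR therefore depend on the length used. Per kilobase *Col4a1* was at 0.183 to 0.344 of *Lamb3* in FS_CTR and at 0.359 to 0.487 in FS_DSS, with no overlap.

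Over the 8 genes the median Log2(FC) was 0.53, with 7 positive values and 1 negative, against a median of -0.02 over all 12729 genes tested and 47.5% positive values. Since the 8 genes were chosen with this contrast in view, these counts describe the choice. The 2 conditions also differed with transcript length over all genes: the median Log2(FC) was -0.26 for the 2696 genes with a transcript under 2 kb, 0.15 for the 1219 genes of 6 to 8 kb and 0.19 for the 784 genes of 8 kb or more, and none of the 8 genes was under 4 kb. With each library's trend against length removed, the Log2(FC) was 0.78 for *Col4a1*, 0.73 for *Col4a2*, 0.77 for *Lamb1*, 0.39 for *Lamc1*, 0.27 for *Lama3*, 0.15 for *Lamb3*, 0.04 for *Lama5* and -0.47 for *Hspg2*, with a median of 0.33. The part of transcript length, and of the share of mitochondrially encoded counts, in the differences was not tested. When only library totals were used for scaling, the median over all genes moved from -0.02 to 0.31, and relative to that median the 8 genes had a median of 0.50.

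The differences by replicate number were not alike over the 8 genes. For *Col4a1*, *Col4a2*, *Lamb1* and *Lamc1* the difference in log2 CPM within a number was larger for numbers 3 and 4 than for 1 and 2: 0.64, 0.64, 1.11 and 1.38 for *Col4a1* and 0.16, 0.23, 0.83 and 1.17 for *Lamc1*, in the order of the numbers. For *Lama3* and *Lamb3* it was larger for numbers 1 and 2: 0.64, 0.73, 0.31 and 0.35 for *Lama3*, and 0.48, 0.56, 0.02 and -0.02 for *Lamb3*. *Lama5* had differences of 0.33, 0.14, 0.13 and 0.51, and *Hspg2* of -1.40, -1.15, 0.96 and 0.71. No source used here says what the replicate numbers stand for.

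**Figure D3:**
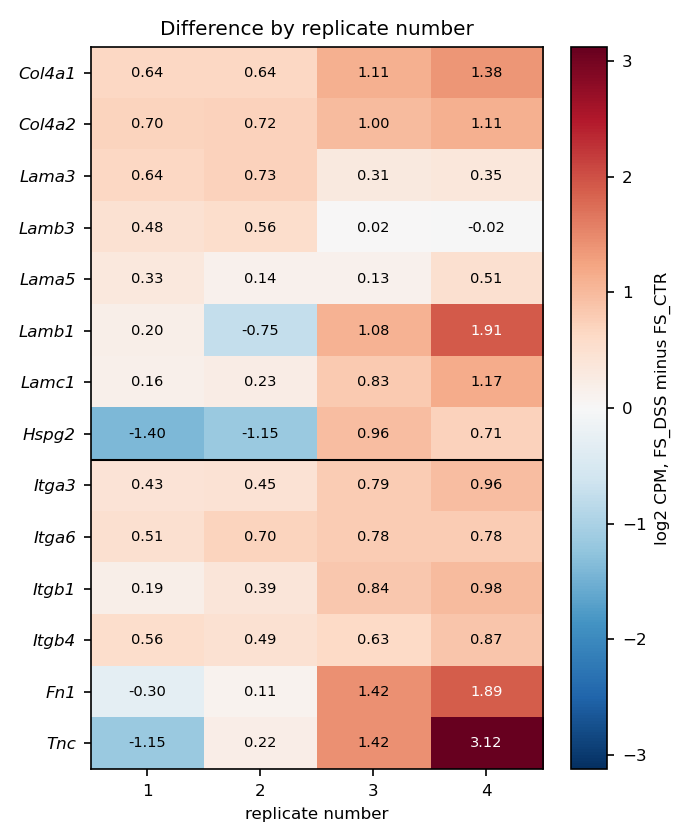
Difference in log2 CPM, FS_DSS minus FS_CTR, between the libraries of the same replicate number (columns) for the 8 genes above the line and 6 related genes below it, red for higher in FS_DSS and blue for lower. *Col4a1*, *Col4a2*, *Lama3*, *Lama5* and *Lamc1* are positive in all 4 columns, *Lamb3* is near 0 in columns 3 and 4, and *Lamb1* and *Hspg2* change sign.

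Among the genes whose log2 CPM followed that of *Col4a1* most closely over the 8 libraries, of 8790 other genes with a mean of at least 10 CPM, were *Ubxn7* (Pearson's r = 0.994), *Itgb4* (0.988), *Kpna4* (0.987), *Tspan9* (0.986) and *Zdhhc5* (0.986). *Itgb4* encodes the β4 integrin of hemidesmosomes and *Kpna4* an importin. *Col4a2* was at 0.979, with 24 other genes above it, and *Lamc1* at 0.957, whereas *Lama3* was at 0.767, *Lamb3* at 0.508, *Lamb1* at 0.455 and *Lama5* at 0.129. After the group means were taken off, *Lamc1* was at 0.988 and *Col4a2* at 0.920 with *Col4a1*, and *Lama5* was at -0.455. All these values share the same 8 libraries and their scaling, and FS_CTR replicates 3 and 4 lie at the low end for *Col4a1*, so they are a description.

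The remaining genes of the basement membrane were tested in the same fit over all genes, with lists chosen by function. The lists were drawn up with earlier results of these data known, so their counts are not free of that knowledge. Over all 12729 genes, edgeR's quasi-likelihood test called 0 genes in either direction at an adjusted *p* of 0.05, while an unadjusted *p* of 0.05 was passed by 1347 genes (10.6%) upwards and 1706 (13.4%) downwards. At that *p* together with a Log2(FC) of at least 0.58 in size, the thresholds of the study, 326 genes (2.56%) were higher and 822 (6.46%) lower in FS_DSS, and with library totals alone this split was 1256 higher and 144 lower. The adjusted threshold of 0.05 was passed by 641 higher and 792 lower genes in DESeq2, by 0 in limma-voom, and by 68 higher (0.534%) and 179 lower (1.41%) in edgeR once the replicate number entered as a block.

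Of 34 other basement membrane genes (10 chains and 24 further components) 19 passed the filter on low counts, 11 with a positive and 8 with a negative Log2(FC) and a median of 0.21. The 16 further components among these were evenly split, 8 positive and 8 negative, with a median of -0.11. By the thresholds of the study 5 were higher, among them *Col18a1*, *Npnt*, *Fbln2* and *Ntn4*, and 1 was lower (*Fbln1*), and 0 passed an adjusted *p* of 0.05 with edgeR, 8 being higher and 1 lower at the unadjusted *p* alone. DESeq2 called 5 higher and 1 lower at an adjusted *p* of 0.05. Without FS_CTR replicates 3 and 4, 1 gene was higher at the thresholds of the study (*Fbln2*) and 2 were lower (*Fbln1* and *Papln*). With 1 library left out 3 to 6 genes were higher, the count being 3 without FS_CTR replicate 4 or FS_DSS replicate 4. The filter was applied anew to each subset of libraries, so these counts can include genes outside the 19. *Ntn4* had an unadjusted *p* of 0.0368, which was 0.0752 with the replicate number as a block. *Ntn4* (netrin-4), *Papln* (papilin) and, below, *Itga6* were named after their values had been seen.

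*Col18a1*, whose product carries the endostatin fragment, was at 83.6, 73.2, 61.3 and 57.1 CPM in FS_CTR and at 90.1, 94.1, 115.4 and 127.2 CPM in FS_DSS. Its groups did not overlap, and its Log2(FC) was 0.63 (standard error 0.155, unadjusted *p* = 0.00275 and adjusted *p* = 0.0875, edgeR). Every FS_DSS library lay above every FS_CTR library in 3 of the 19 genes, against 7.41% of all genes tested. *Npnt*, for nephronectin, a ligand of integrin α8β1, had a Log2(FC) of 0.73 (standard error 0.210, unadjusted *p* = 0.00682, adjusted *p* = 0.0990). *Fbln2*, for fibulin-2, was at 3.62 to 5.08 CPM in FS_CTR and at 6.10, 6.93, 12.6 and 21.8 CPM in FS_DSS, with a Log2(FC) of 1.55 (standard error 0.394, unadjusted *p* = 0.00342, adjusted *p* = 0.0883). *Fbln1*, its relative fibulin-1, went the other way, from 7.22 to 14.6 CPM in FS_CTR to 1.87 to 6.30 CPM in FS_DSS, with a Log2(FC) of -1.24 (standard error 0.354, unadjusted *p* = 0.00663, adjusted *p* = 0.0990). *Tinagl1*, a matricellular protein gene, was higher by less, with a Log2(FC) of 0.47 (unadjusted *p* = 0.00227, adjusted *p* = 0.0832), and *Agrn* was at 0.40 (unadjusted *p* = 0.0445, adjusted *p* = 0.197). Without FS_CTR replicates 3 and 4 the Log2(FC) was 0.45 for *Col18a1*, 0.46 for *Npnt*, 1.66 for *Fbln2*, -1.48 for *Fbln1*, 0.47 for *Tinagl1* and 0.57 for *Agrn*. The lead of *Agrn* shrank with the length trend removed, to 0.23 (unadjusted *p* = 0.256).

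Of 16 receptors and anchors of the basement membrane, all of which passed the filter, 14 had a positive Log2(FC) and the median was 0.35. By the thresholds of the study 4 were higher (*Itgb4*, *Itgb1*, *Itga3* and *Itga6*) and 0 were lower, 8 being higher and 0 lower at the unadjusted *p* alone. At an adjusted *p* of 0.05 edgeR called 0 of them in either direction and DESeq2 called 7 higher and 0 lower. All 4 are integrin chains that bind laminin. *Itgb4* was at 1025, 954.1, 774.4 and 759.4 CPM in FS_CTR and at 1510, 1338, 1201 and 1384 CPM in FS_DSS, with every FS_DSS library above every FS_CTR library, as in 6 of the 16 genes and in 7.41% of all genes tested. Its Log2(FC) was 0.63 (standard error 0.141, unadjusted *p* = 0.00157, adjusted *p* = 0.0791, edgeR), and blocking on the replicate number gave an adjusted *p* of 0.0526, or 0.0464 with a robust estimate of the spread. *Itga6*, its partner chain, was at 265.5 to 459.3 CPM in FS_CTR and at 456.7 to 653.7 CPM in FS_DSS, and its Log2(FC) of 0.67 (standard error 0.204, adjusted *p* = 0.109) had an adjusted *p* of 0.0397 with the block, the 1 gene of this list to pass 0.05 there.

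*Itga3* and *Itgb1*, which pair as the laminin receptor α3β1, were apart between the groups too. *Itga3* was at 489.3, 488.5, 507.3 and 579.8 CPM in FS_CTR and at 659.5, 665.2, 875.2 and 1131 CPM in FS_DSS, a Log2(FC) of 0.69 (standard error 0.182, adjusted *p* = 0.09, edgeR). *Itgb1*, the β1 chain common to many integrins, was at 555.8 to 686.2 CPM in FS_CTR and at 780.5 to 1181 CPM in FS_DSS, a Log2(FC) of 0.61 (standard error 0.15, adjusted *p* = 0.0873). *Cd151*, for a tetraspanin that binds these integrins, had a Log2(FC) of 0.38 (adjusted *p* = 0.0947), and *Plec*, for the plectin that ties integrin β4 to keratins, one of 0.30 (adjusted *p* = 0.237). Without FS_CTR replicates 3 and 4 the Log2(FC) was 0.46 for *Itgb4*, 0.39 for *Itga6*, 0.77 for *Itga3* and 0.52 for *Itgb1* (and 0.36 for both *Cd151* and *Plec*), so that 1 of the 4 still reached 0.58. The count was also 1 (*Itga6*) between replicates 1 and 2 alone and 1 without FS_CTR replicate 3, and it was 2 with the length trend removed (*Itga3* and *Itga6*) or without FS_CTR replicate 4, FS_DSS replicate 1 or FS_DSS replicate 4.

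**Figure D4:**
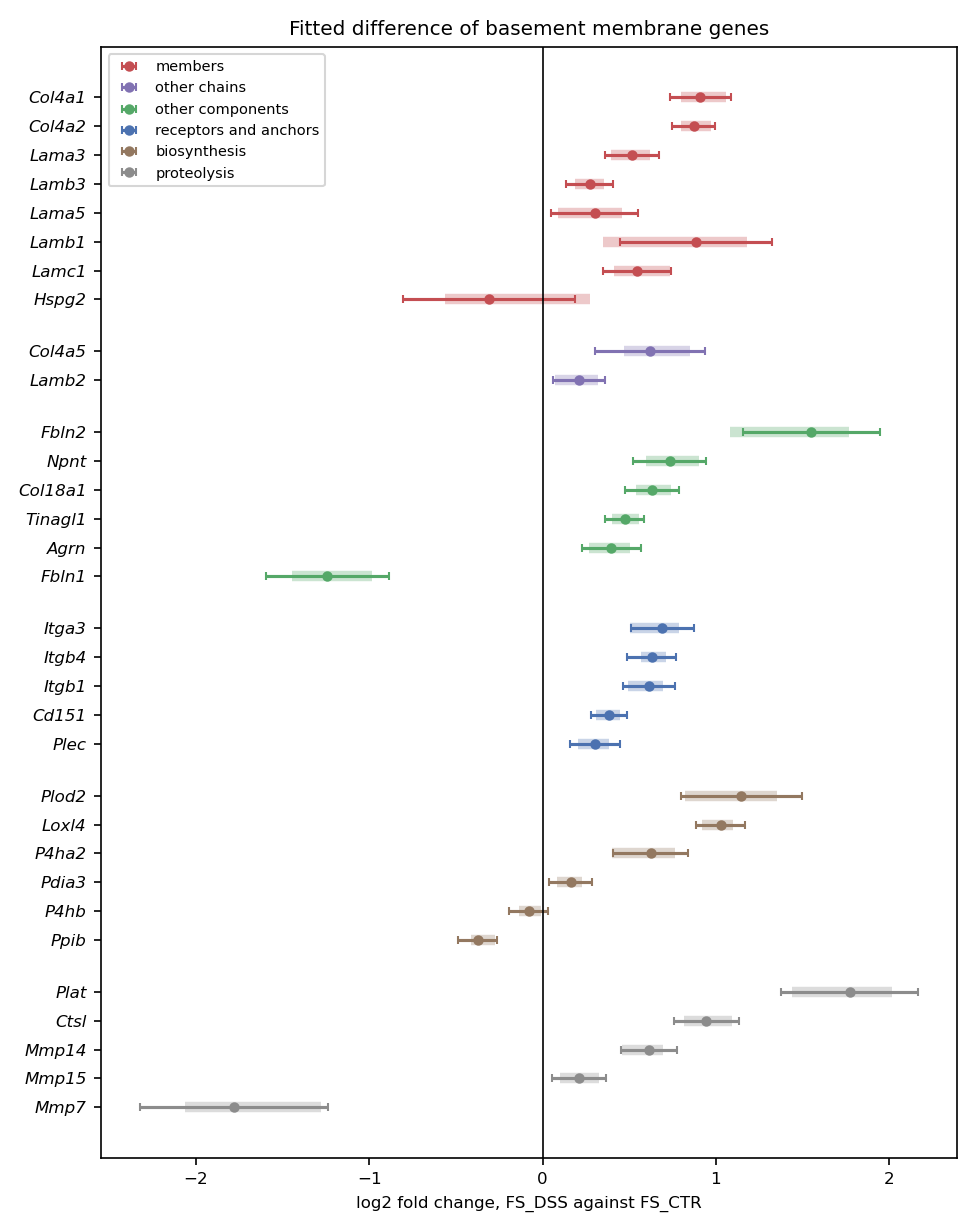
Log2 fold change of FS_DSS against FS_CTR (x axis) for the 8 genes and for genes named from 5 related lists, as points with their standard error. The pale bar shows the range with each library left out in turn. Outside the other chains, the genes were named for a small unadjusted *p* or a high mean CPM. The share of points on each side of 0 is therefore not that of the whole lists. Most points drawn lie to the right of 0, *Hspg2*, *Fbln1*, *Mmp7*, *Ppib* and *P4hb* lie to its left, and the pale bar of *Hspg2* crosses 0.

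Of 30 genes for the folding, modification, export and crosslinking of collagen and laminin 23 passed the filter, 16 with a positive Log2(FC) and a median of 0.16. By the thresholds of the study 3 were higher and 0 lower. At an adjusted *p* of 0.05 DESeq2 called 2 higher and 1 lower, and edgeR called 0. *Loxl4*, for a lysyl oxidase, was at 7.48 to 9.86 CPM in FS_CTR and at 16, 16.2, 17.1 and 21.6 CPM in FS_DSS, a Log2(FC) of 1.03 (standard error 0.143, unadjusted *p* = 5.24e-05, adjusted *p* = 0.0666, edgeR). Its adjusted *p* was 0.0478 in the blocked fit, and its Log2(FC) was 0.93 without FS_CTR replicates 3 and 4. *Plod2*, for a lysyl hydroxylase, was at 7.81 to 8.68 CPM in FS_CTR and at 10, 10.3, 23.6 and 29.5 CPM in FS_DSS, so the size of its Log2(FC) of 1.15 (adjusted *p* = 0.109) rested on FS_DSS replicates 3 and 4, and it was 1.08 without FS_CTR replicates 3 and 4 (unadjusted *p* = 0.0602). *P4ha2*, for a prolyl hydroxylase, had a Log2(FC) of 0.63 (adjusted *p* = 0.138), which lost its unadjusted *p* under 0.05 without FS_CTR replicate 2 (0.0513) and was just under the fold threshold with the block (0.579). Its value without FS_CTR replicates 3 and 4 was 0.71.

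The most abundant genes of this list moved little. *P4hb* and *Pdia3*, for protein disulfide isomerases, had values of -0.08 (adjusted *p* = 0.684) and 0.16 (adjusted *p* = 0.438), or of -0.21 and -0.0023 without FS_CTR replicates 3 and 4. *Ppib*, for the collagen-folding cyclophilin B, was lower by less than the fold threshold, at 132.3 to 151.1 CPM in FS_CTR and 88.4 to 121.1 CPM in FS_DSS (Log2(FC) -0.37, adjusted *p* = 0.109, edgeR), and its Log2(FC) was -0.12 with the length trend removed (unadjusted *p* = 0.191) and -0.31 without FS_CTR replicates 3 and 4 (unadjusted *p* = 0.0614). *Serpinh1*, for the collagen chaperone HSP47, and *Lox* were listed at 0 in every library. With FS_CTR replicates 3 and 4 left out, *Loxl4* and *P4ha2* were the 2 genes of the list higher at the thresholds of the study. Between replicates 1 and 2 alone *Loxl4* was the only 1, and the list had 10 positive and 13 negative values.

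Of 24 genes for proteases that act on basement membrane and for their inhibitors 16 passed the filter, 12 with a positive Log2(FC) and a median of 0.30, and by the thresholds of the study 7 were higher and 1 was lower. *Ctsl*, for cathepsin L, was at 259.4 to 332.1 CPM in FS_CTR and at 382.3, 516.9, 651.4 and 709.3 CPM in FS_DSS, a Log2(FC) of 0.95 (standard error 0.189, unadjusted *p* = 0.000743, adjusted *p* = 0.0784, edgeR). *Plat*, for tissue plasminogen activator, was at 41.5, 42.2, 46.2 and 64.1 CPM in FS_CTR and at 73.6, 98.9, 222 and 267.2 CPM in FS_DSS, a Log2(FC) of 1.77 (standard error 0.395, adjusted *p* = 0.0791). *Mmp14*, for a membrane-bound matrix metalloproteinase, had a Log2(FC) of 0.62 (adjusted *p* = 0.0895). In these 3 genes, named for a small unadjusted *p*, every FS_DSS library lay above every FS_CTR library. So it did in 5 of the 16 genes of the list, against 7.41% of all genes tested. The values of *Ctsl*, *Plat* and *Mmp14* without FS_CTR replicates 3 and 4 were 0.89, 1.99 and 0.51. *Mmp15*, the most abundant metalloproteinase gene of the list, had a Log2(FC) of 0.21 (adjusted *p* = 0.424, edgeR), which was 0.46 without FS_CTR replicates 3 and 4 (unadjusted *p* = 0.0121).

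*Mmp7*, for matrilysin, a protease best known from Paneth cells of the small intestine, was at 68.8, 46.8, 17.7 and 12.7 CPM in FS_CTR and at 15.7, 10.2, 11.6 and 5.26 CPM in FS_DSS, a Log2(FC) of -1.78 (standard error 0.541, adjusted *p* = 0.109, edgeR). FS_CTR replicate 4 lay within the FS_DSS range and FS_CTR replicate 3 just above it, and without both the value was -2.44. The count of higher genes in this list was 4 without FS_CTR replicates 3 and 4, 4 without FS_DSS replicate 4 and 2 between replicates 1 and 2 alone.

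Matrix genes of connective tissue were mostly at or near 0. Of 14 listed, 4 passed the filter, 3 with a positive Log2(FC), and *Col1a1* averaged 0.649 CPM in FS_CTR and 0.460 CPM in FS_DSS. *Fn1*, for fibronectin, which epithelial cells also make, was the exception at 2257, 1635, 1100 and 1074 CPM in FS_CTR and 1833, 1770, 2953 and 3989 CPM in FS_DSS. Its Log2(FC) of 0.80 (unadjusted *p* = 0.0409, adjusted *p* = 0.188, edgeR) was -0.11 between replicates 1 and 2 and 1.70 between replicates 3 and 4, and its unadjusted *p* was under 0.05 in 3 of the 8 fits with 1 library left out. It was 0.44 without FS_CTR replicates 3 and 4 (unadjusted *p* = 0.261), and with the block the unadjusted *p* was 0.107. *Tnc*, for tenascin-C, was at 3.91 to 12.9 CPM in FS_CTR and at 3.72, 6.44, 34.8 and 34.6 CPM in FS_DSS (Log2(FC) 1.39, adjusted *p* = 0.266, and 1.52 without FS_CTR replicates 3 and 4). In both genes FS_DSS replicates 3 and 4 were the highest libraries, as they were for *Lamb1*.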

How the data were processed

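RNA of 4 FS_CTR and 4 FS_DSS samples was sequenced for the authors by a service provider as stranded, paired-end DNBSEQ libraries. The authors deposited 1 table of estimated counts per gene symbol, made with Salmon 1.10.1 on GRCm39 transcripts and tximport and not normalized, whose values were whole numbers. DESeq2 1.36.0 was also named in the submitters' processing notes. The transcript release and the strand setting were not given in the sources used here. Without a stated strand setting, reads of the overlapping 5′ ends of *Col4a1* and *Col4a2* cannot be assigned with certainty.

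The counts were scaled by the trimmed mean of M values (TMM), genes were filtered with filterByExpr (12729 of 29234 kept) and FS_DSS was compared with FS_CTR by edgeR 4.0.16's quasi-likelihood test in R 4.3.3, with condition as the only term and Benjamini-Hochberg adjustment over all genes kept. The study used DESeq2, without a stated design formula. CPM are TMM-scaled, and log2 CPM used a prior count of 2. Lengths are those of canonical transcripts in GENCODE M39 (97.0% of the genes kept). The length trend was a lowess curve (span 0.3) per library. Promoter windows are RefSeq's on GRCm38.p6. Other tools were limma 3.58.1, DESeq2 1.42.0, Python 3.11.15, numpy 2.4.6, pandas 2.3.3, scipy 1.17.1 and matplotlib 3.10.9.

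The members and all lists were chosen with earlier results of these data known. Named genes were the 8 members, all other chains, and in each further list up to 4 genes per direction with the smallest unadjusted *p* under 0.05 and the 2 with the highest mean CPM, plus the 6 genes most like *Col4a1*. Results of a few genes that this rule names are not reported here. Markers of cell types are given as summed levels, with values for 4 of them. Older symbols in the table were matched for 5 listed genes. After the group means were taken off, libraries of the same number correlated at 0.352, 0.221, 0.154 and 0.226 for numbers 1 to 4. All exceed 0.1, so the numbers were taken as pairs in the blocked fits, from the data alone. This rule does not single out pairs, since libraries of unlike number passed it too. FS_CTR replicate 3 correlated with FS_DSS replicate 4 at 0.188, and FS_CTR replicate 2 with FS_DSS replicate 1 at 0.142. Whether the numbers are pairs is not known, and the main fit did not use them. The alternatives were other scalings, filters and tests, the replicate number as a block, a length trend offset with and without the block, each library left out in turn, and subsets of the libraries, with the robust estimate of the spread added after the data had been seen.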

Additional observations from a re-analysis of the deposited data

Results flagged for a closer look

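Of 90 groups of 4 libraries checked, 1 for each condition of the named genes that passed the filter on low counts, 2 had a library farther from the other 3 than the critical value of Dixon's test allows, and chance flags about 1 in 20 groups. *Fbln2* was at 5.08 CPM in FS_CTR replicate 4, above the other 3 FS_CTR libraries at 3.62 to 3.78 CPM. *Ppib* was at 88.4 CPM in FS_DSS replicate 1, below the other 3 FS_DSS libraries at 117.5 to 121.1 CPM. None of the 8 members had such a library in either condition.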

How the results depend on the processing

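*Col4a1*, *Col4a2*, *Lama3*, *Lamb3*, *Lama5* and *Lamc1* had a positive Log2(FC) under all 23 alternatives, *Lamb1* under 22 (-0.18 between replicates 1 and 2), and *Hspg2* kept its negative sign under 21 (0.85 between replicates 3 and 4, and -0.56 to 0.27 with 1 library left out, 0.27 being that without FS_CTR replicate 1). The median of the 8 members, 0.53, was 0.81 with library totals, 0.33 with the length trend removed, 0.34 with the block as well, 0.93 between replicates 3 and 4, and 0.43 to 0.66 with 1 library left out. That of the other basement membrane genes, 0.21, was 0.56 with library totals, 0.44 at 10 or more counts in every sample, 0.034 between replicates 1 and 2, 0.40 between replicates 3 and 4, and 0.13 to 0.37 with 1 library left out (0.37 without FS_CTR replicate 1).

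At an adjusted *p* of 0.05, edgeR called 0 genes higher and 0 lower with its main settings. The counts were 1 and 1 with library totals, 641 and 792 with DESeq2, 68 and 179 with the replicate block, 77 and 193 with the block and the robust estimate, 5 and 12 with the length trend and the block, 1 and 7 between replicates 1 and 2, 2116 and 2190 between replicates 3 and 4, and 0 to 500 and 0 to 685 with 1 library left out (500 and 685 without FS_CTR replicate 1). At the thresholds of the study, 326 higher and 822 lower became 1256 and 144 with library totals, 213 higher between replicates 1 and 2, 1352 and 1628 between replicates 3 and 4, and 178 (without FS_DSS replicate 4) to 614 (without FS_CTR replicate 1) higher and 586 to 1070 lower with 1 library left out.

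Of the other basement membrane genes, 5 higher and 1 lower became 3 and 3 with the length trend, 2 and 3 with the length trend and the block, 1 and 2 without FS_CTR replicates 3 and 4, 2 and 2 between replicates 1 and 2, 10 and 3 between replicates 3 and 4, 0 lower with library totals, 2 lower with the block (with or without the robust estimate), and 3 to 6 higher and 1 to 2 lower with 1 library left out. At an adjusted *p* of 0.05 they were 5 and 1 with DESeq2, 1 higher with the replicate block with or without the robust estimate, 10 and 2 between replicates 3 and 4, and 0 to 3 higher with 1 library left out (3 without FS_CTR replicate 1). For each subset of libraries the filter was applied anew, so these counts can include genes that failed it in the main fit. Of the 19 genes of the main fit, 2 chains and 6 further components were higher at the thresholds of the study between replicates 3 and 4. Of the genes named here, the block brought *Itga6* and *Loxl4* under an adjusted *p* of 0.05, the robust estimate also *Itgb4* and *Plat*, and at the thresholds of the study the block ended the calls of *Ntn4*, *P4ha2* and *Fn1*. The block changed no other call of a named gene at either threshold. *Cdx2* turned from -0.28 to 0.072 with library totals, *P4hb* from -0.08 to 0.21 with library totals and 0.066 between replicates 3 and 4, *Pdia3* from 0.16 to -0.0023 without FS_CTR replicates 3 and 4 and -0.054 between replicates 1 and 2, where *Fn1* turned from 0.80 to -0.11 and *Tnc* from 1.39 to -0.45. The cause of these changes was not tested. Of the 8 members, *Hspg2* had the fewest counts, 19 to 199 a library.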
